A study of Mus musculus with 77 samples.

Results

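The mouse mitochondrial genome encodes 13 respiratory chain proteins, and 6 of them belong to complexes III, IV and V. These are cytochrome b (*mt-Cytb*), the redox core of complex III, the cytochrome c oxidase subunits *mt-Co1*, *mt-Co2* and *mt-Co3* of complex IV, and the ATP synthase subunits *mt-Atp6* and *mt-Atp8* of complex V. These 6 mRNAs were selected from 25266 annotated genes by the complex they serve and the genome that encodes them. No measured value entered the rule, but the group was proposed after the footprints of 2 complex I mRNAs of the same genome had been seen to rise in one of the comparisons below, so what the members did there is not independent of that result. The low mitochondrial RNA content of one liver was also known and is given below as a description, without a test.

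Total RNA and ribosome-protected fragments (RPF, the mRNA pieces shielded by a translating ribosome) were sequenced from the livers of 24 male C57BL/6J mice aged 12 to 24 weeks. In one line *Aco1*, which encodes the iron regulatory protein IRP1, was knocked out (*Aco1*-/-, allele Aco1 tm1.1Mwh), and in the other *Ireb2*, which encodes IRP2 (*Ireb2*-/-, allele Ireb2 tm1.2Mwh). According to the study, the *Aco1* knockout allele still gives an mRNA, with a disrupted reading frame. Its Western blots showed no IRP1 in *Aco1*-/- and no IRP2 in *Ireb2*-/- livers. Both knockouts affect the whole body, and each line had its own wild-type controls (*Aco1*+/+ and *Ireb2*+/+). All mice ate ad libitum under 12 h light and 12 h dark, and 3 livers per group were taken at ZT5 (5 h after lights on) and at ZT12 (lights off), which gives 8 groups. The study compared genotypes and times of day to learn when each IRP acts on liver mRNAs.

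Mitochondrial mRNAs are transcribed as long polycistronic precursors that are cut at the intervening tRNAs, and they are translated inside the organelle by mitochondrial ribosomes with their own initiation and elongation factors. Their level therefore depends on mitochondrial transcription, processing and decay, while the partner subunits of complexes III, IV and V are transcribed in the nucleus and made by cytosolic ribosomes. Liver is rich in mitochondria, and its mitochondrial mRNAs are abundant in most RNA-seq libraries. In bulk liver, fewer mitochondria-rich cells and less mitochondrial RNA per cell cannot be told apart.

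CDS counts (reads inside coding sequence) summed to between 852293 and 3993490 in the RNA libraries and between 2448920 and 13439600 in the RPF libraries. Values are given as CPM, CDS counts relative to the library size after upper-quartile scaling, and translation efficiency (TE) is the RPF CPM over the RNA CPM of the same liver. The targeted genes were lower in their knockouts, with *Aco1* at 74.8 to 123.2 RPF CPM in *Aco1*-/- livers against 347.1 to 591 in *Aco1*+/+, and *Ireb2* at 32.5 to 41.2 in *Ireb2*-/- against 62.3 to 81.4 in *Ireb2*+/+. Summed hepatocyte markers (7 of 7 genes found) lay between 92280 and 151359 RNA CPM over the 24 livers. The sums for Kupffer cell, endothelial, stellate, cholangiocyte, red blood cell, and muscle and fat markers were at most 619 CPM in every liver.

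The members differed widely in how well they could be counted. On the mitochondrial chromosome of GRCm38.p6, *mt-Co1* (ENSMUSG00000064351) lies at 5328 to 6872, *mt-Co2* (ENSMUSG00000064354) at 7013 to 7696, *mt-Atp8* (ENSMUSG00000064356) at 7766 to 7969, *mt-Atp6* (ENSMUSG00000064357) at 7927 to 8607, *mt-Co3* (ENSMUSG00000064358) at 8607 to 9390 and *mt-Cytb* (ENSMUSG00000064370) at 14145 to 15288. Each of them is a single uninterrupted coding stretch, and all of their counts lay in the CDS column. *mt-Cytb*, *mt-Co1* and *mt-Atp8* had at least 824 counts in each RNA library and at least 359 in each RPF library. *mt-Atp6* had 7 to 806 counts in RNA and 0 to 22 in RPF, and *mt-Co3* had 5 to 256 in RNA and 0 to 4 in RPF, with 0 in 15 of 24 RPF libraries. *mt-Co2* was listed at 0 in all 48 libraries, so 5 of 6 members passed the filter on low counts, and *mt-Co3* and *mt-Atp6* passed it through their RNA counts. A count of 0 allows at most 3 counts, which is 0.626 to 3.05 CPM in the RNA libraries, counting error only.

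The 2 members with few counts, *mt-Atp6* and *mt-Co3*, sat next to each other, while *mt-Co2* lies apart from them, on the other side of *mt-Atp8*. *mt-Atp6*, *mt-Co3* and the complex I mRNAs *mt-Nd3* and *mt-Nd4l* follow one another on the chromosome, and all 4 were far below their neighbours on both sides per kb of gene length. RefSeq annotates a nuclear copy of *mt-Atp6* as the pseudogene Gm10925 on chromosome 1, from 24613971 to 24614651, of the same 681 bases. A second pseudogene, Gm10222, lies beside it from 24612404 to 24612700 and has the 297 bases of *mt-Nd4l*. The starts of *mt-Atp6* and *mt-Nd4l* are 1950 bases apart in the mitochondrial genome, and the corresponding ends of the 2 pseudogenes are 1951 bases apart. Both pseudogenes were in the count tables with 0 counts in all libraries. How reads that map to more than one place were treated is not given in the sources used here, and the part of such copies in the low counts was not tested. The *mt-Atp8* and *mt-Atp6* frames share 43 bases, whose reads cannot be assigned to either gene alone. The counts of *mt-Co3* and *mt-Atp6* are for these reasons treated as uncertain, as is the 0 of *mt-Co2*, whose cause was not tested.

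**Figure D1:**
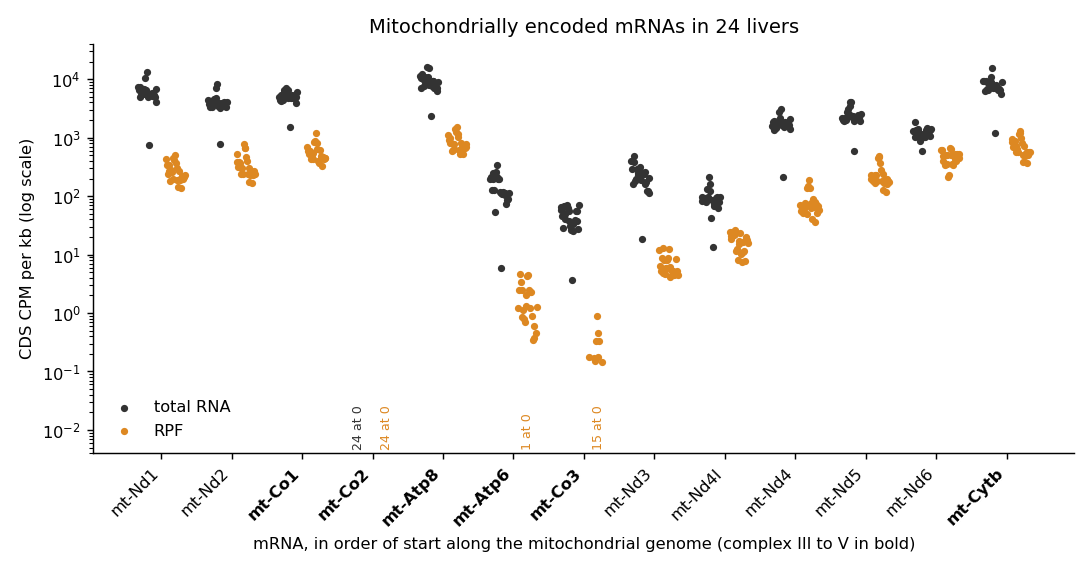
CDS CPM per kb of gene length (log axis) of the 13 mitochondrially encoded mRNAs in order along the mitochondrial genome, with 1 point per liver for total RNA (dark) and RPF (orange). Libraries at 0 cannot be drawn on a log axis and are counted in words, 24 of 24 for mt-Co2 in both library kinds.

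Per kb of coding length, *mt-Atp8* RNA was the highest of the 3 well counted members, with a median of 9006 CPM per kb over the 24 livers (lowest 2331, highest 16023). Its 204 bases include the 43 shared with *mt-Atp6*. *mt-Cytb* RNA followed with a median of 7492 (1182 to 15255) and *mt-Co1* RNA with 4972 (1531 to 6997). The order *mt-Atp8* over *mt-Cytb* held in 23 of 24 livers, and that of *mt-Cytb* over *mt-Co1* also in 23. *mt-Atp6* and *mt-Co3*, whose counts are uncertain, gave medians of 115 and 43.0 CPM per kb in RNA, which are not read as transcript levels. In RPF libraries the same 3 members had medians of 772 for *mt-Atp8*, 674 for *mt-Cytb* and 519 CPM per kb for *mt-Co1*. The order held in 22 and 24 of 24 livers for the neighbouring pairs.

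TE, by contrast, was highest for *mt-Co1*. Its median log2 TE over the 24 livers was -3.15, against -3.49 for *mt-Cytb* and -3.51 for *mt-Atp8*. *mt-Co1* exceeded *mt-Cytb* in 22 of 24 livers, while *mt-Cytb* exceeded *mt-Atp8* in 13, so the last pair did not separate. These 3 members sat near the bottom of the range of all genes, whose median log2 TE was 0.08. Only 0.271% of the 10696 tested genes lay below *mt-Co1* and 0.103% below *mt-Atp8*. *mt-Co3* and *mt-Atp6* ranked lower still, but their RPF counts were near 0. Their place thus depends on the 0.5 CPM added before ranking and on uncertain counts. RPF reads of 24 to 35 nt and RNA reads of 21 to 60 nt were kept before mapping, and the part of that selection in the low RPF of mitochondrial mRNAs was not tested.

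One library stood apart. In *Ireb2*+/+ replicate 3 at ZT5, mitochondrially encoded mRNAs took 0.947% of the RNA CDS counts (95% Wilson interval 0.931 to 0.963, which covers counting error only and not the spread between livers). The other 23 livers ranged from 3.07% to 7.21%. The 6 members took 0.522% there and 1.56% to 3.47% elsewhere. Of the complex I mRNAs, *mt-Nd6* was little lower there, at 531 RNA CPM against 559 and 609 in the other 2 livers of the group. The rest were far below those livers, as *mt-Nd1* at 728 against 4767 and 5141. The members fell short to unequal degrees. *mt-Co1* RNA was 2366 CPM in this liver against 7252 and 7713 in the other 2 livers of the group, *mt-Atp8* was 475 against 1649 and 1742, and *mt-Cytb* was 1352 against 7960 and 8661. *mt-Atp6* had 7 counts and *mt-Co3* had 5. In the RPF library of the same liver mitochondrial mRNAs took 0.207%, within the 0.159% to 0.531% of the others, although *mt-Co1* RPF was the lowest of its group, at 614 against 1232 and 987 CPM. The RNA library also had the highest share of all counts inside coding sequence, 66.7% against 48.3% to 63.8% in the others, and the lowest share in 3′ UTRs, 17.2% against 22.1% to 27.6%. The part of library quality in the low values was not tested. Results that rest on this liver are given with and without it.

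The loss of IRP1 was accompanied by more footprints on these mRNAs at ZT12. RPFs of *mt-Co1*, *mt-Cytb* and *mt-Atp8* were about doubled in *Aco1*-/- livers, and each *Aco1*-/- liver lay above each *Aco1*+/+ liver for all 3. Their RNA did not pass the test in edgeR or DESeq2, and in TE edgeR called *mt-Co1*, while DESeq2 called *mt-Co1* and *mt-Atp8*. The RNA share of all mitochondrial mRNAs was nonetheless 5.04% to 7.21% of CDS counts in *Aco1*-/- and 4.24% to 4.94% in *Aco1*+/+ livers, with no overlap, and of 7 complex I mRNAs 5 were higher and 1, *mt-Nd6*, was lower (log2 fold change -0.58) at an unadjusted p under 0.05 in RNA, none of which passed after adjustment. In RPF, 3 of 5 tested members passed an adjusted p of 0.05, against 0.299% of all 10696 genes, as did 3 of 7 complex I mRNAs of the same genome. The groups of those 3 members were separated in the same direction, which was so for 9.83% of all genes.

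*mt-Co1* encodes the catalytic heme-copper subunit of complex IV. Its RPF at ZT12 was 794, 843 and 675 CPM in *Aco1*+/+ livers and 1284, 1378 and 1849 CPM in *Aco1*-/- livers. The means were 771 ± 86.3 and 1504 ± 303 (SD, n = 3). The log2 fold change was 0.96 (SE 0.17, edgeR adjusted p = 0.0214), and the exact two-sided permutation test gave p = 0.1, the smallest that 3 against 3 allow. *mt-Co1* RNA overlapped, with 9189, 9906 and 8736 CPM in *Aco1*+/+ and 10810.3, 9543 and 10032 CPM in *Aco1*-/- livers (log2 fold change 0.13, SE 0.13, edgeR adjusted p = 0.861). Its log2 TE was accordingly -3.53, -3.55 and -3.69 in *Aco1*+/+ and -3.07, -2.79 and -2.44 in *Aco1*-/- livers. The TE difference of 0.83 (SE 0.13, edgeR adjusted p = 0.00100) was one of 10 called among all genes (0.0935%), and separation upward was seen for 6.23% of genes.

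*mt-Cytb* RPF at ZT12 was 818, 735 and 647 CPM in *Aco1*+/+ and 1339, 1380 (1379.6) and 1492 CPM in *Aco1*-/- livers. The 3 knockout values lay close together, and their mean of 1404 ± 79.2 (SD, n = 3) compares with 733 ± 85.4 in the controls. The log2 fold change was 0.94 (SE 0.17, edgeR adjusted p = 0.0214). Unlike for *mt-Co1*, the RNA groups were also separated, with 7497, 9475 and 9394 CPM in *Aco1*+/+ and 12679, 10385 and 17452 CPM in *Aco1*-/- livers, as were those of 5.41% of all genes in this direction. The RNA difference of 0.62 (SE 0.18) had an edgeR adjusted p of 0.462, and the TE difference of 0.35 one of 0.713. With a mouse left out the RNA difference ran from 0.39 (without *Aco1*-/- replicate 3) to 0.78, and the TE difference from 0.19 (without *Aco1*-/- replicate 2) to 0.54 (without *Aco1*+/+ replicate 1). *mt-Cytb* RNA passed (adjusted p = 0.0482) only when *Aco1*-/- replicate 2 was left out.

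*mt-Atp8* encodes a small membrane subunit of ATP synthase. Its RPF at ZT12 was 128, 156 and 132.8 CPM in *Aco1*+/+ and 284, 258 and 307 CPM in *Aco1*-/- livers, or 139 ± 15.2 against 283 ± 24.1 (SD, n = 3). The log2 fold change of 1.03 (SE 0.17, edgeR adjusted p = 0.0128) was the largest among the 3 well counted members. *mt-Atp8* RNA was 1850 (1849.6), 2202 and 1962 CPM in *Aco1*+/+ and 3269, 2195 and 3147 CPM in *Aco1*-/- livers, where *Aco1*-/- replicate 2 fell within the range of the controls (log2 fold change 0.52, edgeR adjusted p = 0.525). The TE difference of 0.53 did not pass (edgeR adjusted p = 0.0919), although the groups were separated.

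The remaining members bore little information on this comparison. *mt-Atp6* had 6, 4 and 4 RPF counts in *Aco1*+/+ and 7, 8 and 16 in *Aco1*-/- livers at ZT12, and its log2 fold change of 1.45 had an edgeR adjusted p of 0.323. *mt-Co3* had 0, 1 and 1 RPF counts against 2, 4 and 2. No member was called in RNA at ZT12 by edgeR or DESeq2, although *mt-Cytb* and *mt-Atp8* had an unadjusted p under 0.05, and 0.00935% of all genes were called.

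The RPF calls were sensitive to the livers included. Leaving out one mouse at a time kept the log2 fold changes at ZT12 between 0.79 and 1.07 for *mt-Co1*, 0.85 and 1.02 for *mt-Cytb*, and 0.97 and 1.12 for *mt-Atp8*. The adjusted p passed in 2, 1 and 4 of 6 such fits, and no member passed without *Aco1*+/+ replicate 1 or without replicate 3 at ZT12, while *mt-Atp8* alone did without *Aco1*+/+ replicate 2 or *Aco1*-/- replicate 2. Each of the 3 calls was kept in all 9 other ways of processing. The TE call of *mt-Co1* held in 6 of 6 fits with a mouse left out but was lost when the RNA and RPF libraries were not paired by mouse and in limma on TE per mouse, where its highest adjusted p was 0.683.

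**Figure D2:**
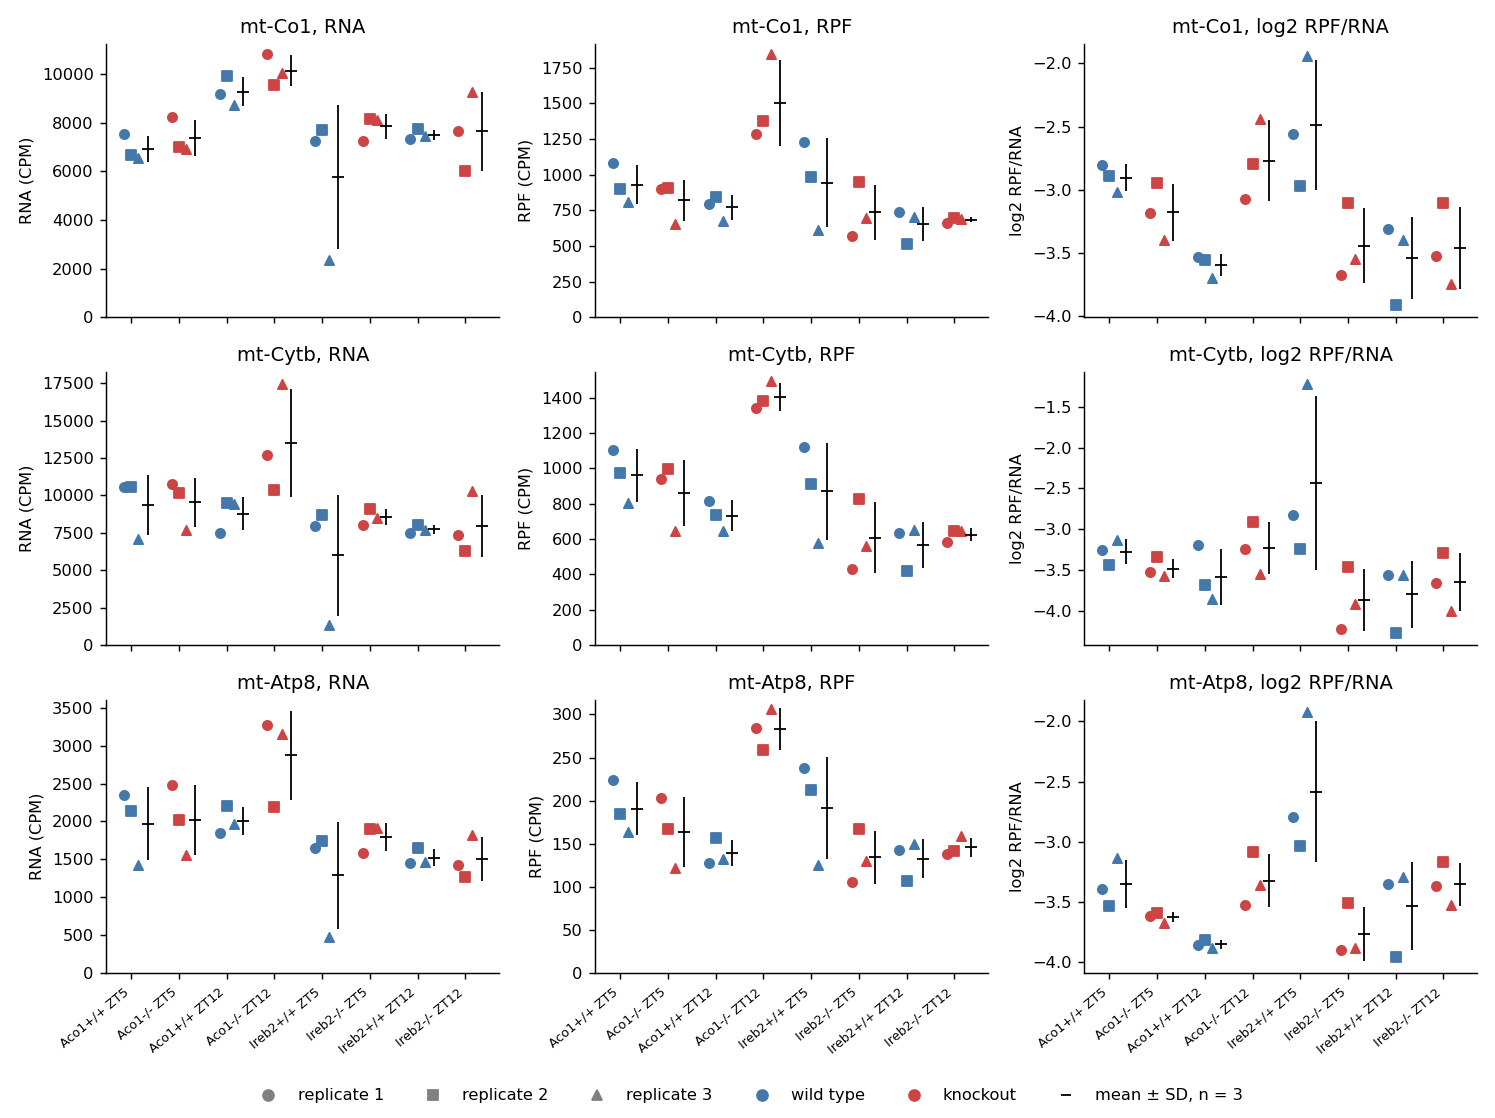
RNA CPM, RPF CPM and log2 RPF/RNA (columns) of mt-Co1, mt-Cytb and mt-Atp8 (rows) in each liver by group; colours give genotype, symbols the replicate, and bars the mean ± SD (n = 3). The 3 Aco1-/- livers at ZT12 have the highest RPF values of the Aco1 line, and Ireb2+/+ replicate 3 at ZT5 has the lowest RNA of all livers.

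At ZT5 no member was called between the same genotypes. *mt-Co1* RPF was 1083, 898 and 810.5 CPM in *Aco1*+/+ and 902, 908 and 654 CPM in *Aco1*-/- livers, so the knockouts were within or below the range of the controls. The log2 fold changes of *mt-Co1*, *mt-Cytb* and *mt-Atp8* RPF at ZT5 were -0.18, -0.16 and -0.22 with edgeR adjusted p of 1. RNA differed by at most 0.09 on the log2 scale among these 3. This held in RNA, RPF and TE with edgeR and DESeq2, against 0.0%, 0.00935% and 0.00935% of all genes in edgeR, and 2 members, *mt-Co1* and *mt-Atp8*, had an unadjusted p under 0.05, both in TE. *mt-Atp8* TE was lower in each *Aco1*-/- liver than in each *Aco1*+/+ liver at ZT5, as was that of 4.69% of genes. Red blood cell marker sums (4 of 5 genes found) also separated at ZT5, at 7.30 to 20.9 RNA CPM in *Aco1*-/- and 36.1 to 72.0 in *Aco1*+/+ livers, and their part in this difference was not tested. *mt-Co1* RNA was 7544, 6680 (6679.8) and 6564 CPM in *Aco1*+/+ and 8213, 6996 and 6902 CPM in *Aco1*-/- livers.

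The change of the genotype effect from ZT5 to ZT12 was tested directly. For TE of *mt-Co1* it was 1.10 on the log2 scale (SE 0.18, edgeR adjusted p = 0.00462), one of 3 genes called (0.028%). For *mt-Atp8* TE it was 0.79 (edgeR adjusted p = 0.178). For RPF it was 1.15, 1.10 and 1.24 for *mt-Co1*, *mt-Cytb* and *mt-Atp8*, and none passed (edgeR adjusted p = 0.232, 0.232 and 0.157), nor did any gene in RPF or RNA (0.0% in both, with 590 and 628 genes at an unadjusted p under 0.05). These 3 members had an unadjusted p under 0.05 in RPF, and DESeq2 called them among 13 genes. In RNA, DESeq2 called no gene. The *mt-Co1* TE difference was lost without *Aco1*+/+ replicate 3 at ZT12 or *Aco1*+/+ replicate 1 at ZT5, and its highest adjusted p with a mouse left out was 0.0652. It was also lost with all count columns, with libraries not paired by mouse and in limma on TE per mouse, 3 of 10 other ways of processing.

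**Figure D3:**
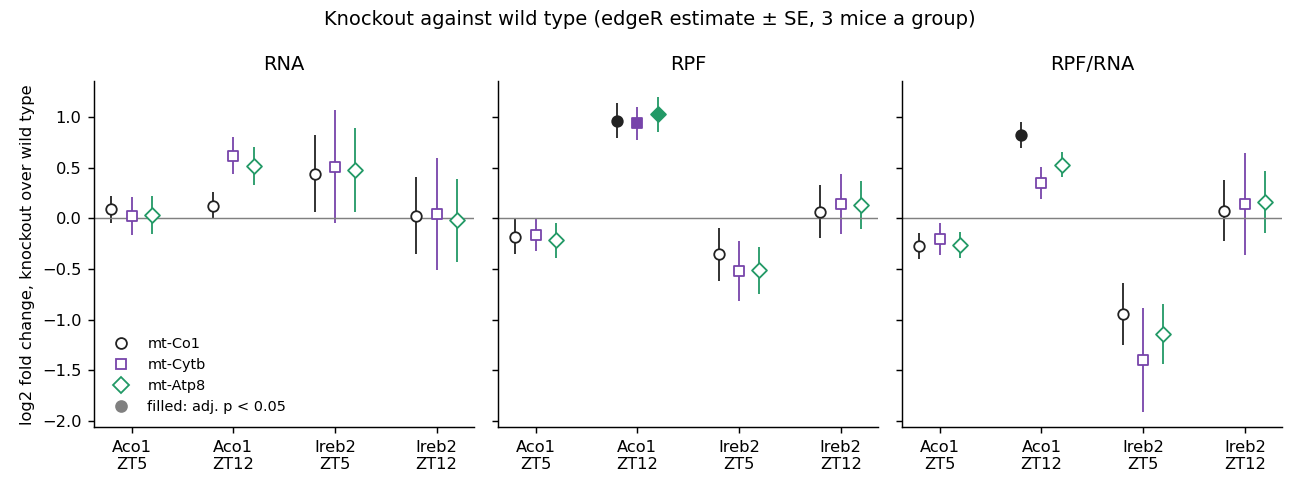
Log2 fold change of knockout over wild type (edgeR estimate ± SE, 3 mice per group) in RNA, RPF and RPF/RNA for mt-Co1, mt-Cytb and mt-Atp8 in the 4 genotype comparisons; filled symbols passed an adjusted p of 0.05. The filled symbols are the 3 RPF values and the mt-Co1 TE value of the Aco1 line at ZT12.

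The times of day were then compared within each genotype. In *Aco1*-/- livers, RPFs rose from ZT5 to ZT12 for *mt-Co1* by 0.87 (SE 0.17, edgeR adjusted p = 0.00335), for *mt-Atp8* by 0.78 (SE 0.17, 0.00684) and for *mt-Cytb* by 0.70 (SE 0.17, 0.0101) on the log2 scale. That is 3 of 5 tested members, against 12.1% of all genes called, and the groups were separated upward for 12.1% of genes. These 3 calls remained in each fit with a mouse left out and in each of 8 other ways of processing. In *Aco1*+/+ livers no member was called in RPF (6.64% of genes were), and the estimates were -0.27, -0.46 and -0.39 for *mt-Co1*, *mt-Atp8* and *mt-Cytb*. *mt-Atp8* RPF was 224, 185 and 163 CPM at ZT5 and 128, 156 and 132.8 CPM at ZT12 in *Aco1*+/+ livers, so each later value lay below each earlier one, as for 14.4% of genes. DESeq2 called no member either, and *mt-Cytb*, *mt-Atp6* and *mt-Atp8* had an unadjusted p under 0.05.

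*mt-Co1* RNA was higher at ZT12 in both genotypes of the *Aco1* line. It rose by 0.42 in *Aco1*+/+ (SE 0.13, edgeR adjusted p = 0.0432, 7.05% of genes called) and by 0.46 in *Aco1*-/- livers (SE 0.13, edgeR adjusted p = 0.0336, 5.15% called), and all ZT12 values exceeded all ZT5 values in each genotype, as for 12.4% and 8.5% of genes. *mt-Cytb* and *mt-Atp8* RNA changed by -0.09 and 0.02 in *Aco1*+/+ and by 0.50 and 0.51 in *Aco1*-/- livers, and none of these passed. The *mt-Co1* call in *Aco1*+/+ was lost in 6 of 6 fits with a mouse left out, and that in *Aco1*-/- in 4 of 6. In *Aco1*+/+ livers TE of *mt-Co1* fell by 0.69 (SE 0.13, edgeR adjusted p = 0.0342, one of 2 genes called, 0.0187%), and separation downward was seen for 7.82% of genes. This call was lost in 5 of 6 fits with a mouse left out. Cholangiocyte marker sums (5 of 5 genes found) separated over the same contrast, from 26.8 to 38.4 RNA CPM at ZT5 and from 11.7 to 12.6 at ZT12, and their part in it was not tested. No member was called in TE of *Aco1*-/- livers by edgeR (0.15% of genes were) or DESeq2, and 3 had an unadjusted p under 0.05. One of these was *mt-Atp8*, whose TE was higher in each ZT12 liver than in each ZT5 liver, as for 6.69% of genes.

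Ratios within a library do not depend on how libraries are scaled to each other. Per kb, *mt-Cytb* RNA exceeded *mt-Co1* RNA by a median log2 ratio of 0.56 over the 24 livers (-0.37 to 1.23), and in RPF by 0.33 (0.03 to 0.57). Over the 24 livers the SD of this ratio was 0.31 in RNA and 0.14 in RPF. For *mt-Atp8* over *mt-Co1* it was 0.25 and 0.13. These values include *Ireb2*+/+ replicate 3 at ZT5, and the order did not hold in each group. For *mt-Cytb* over *mt-Co1* the SD (n = 3) was larger in RNA in each *Aco1* group. In the *Ireb2* line it was 0.55 in RNA and 0.02 in RPF for wild type at ZT5, and 0.11 and 0.05 for *Ireb2*-/- at ZT12. It was smaller in RNA for *Ireb2*-/- at ZT5 (0.05 against 0.10) and wild type at ZT12 (0.01 against 0.09). In *Aco1*+/+ livers the RNA ratio of *mt-Cytb* to *mt-Co1* was 0.92, 1.09 and 0.54 at ZT5 and 0.14, 0.37 and 0.54 at ZT12, and the *Aco1*-/- livers had 0.66, 0.56 and 1.23 at ZT12. The lowest ratio, -0.37, was that of *Ireb2*+/+ replicate 3 at ZT5.

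**Figure D4:**
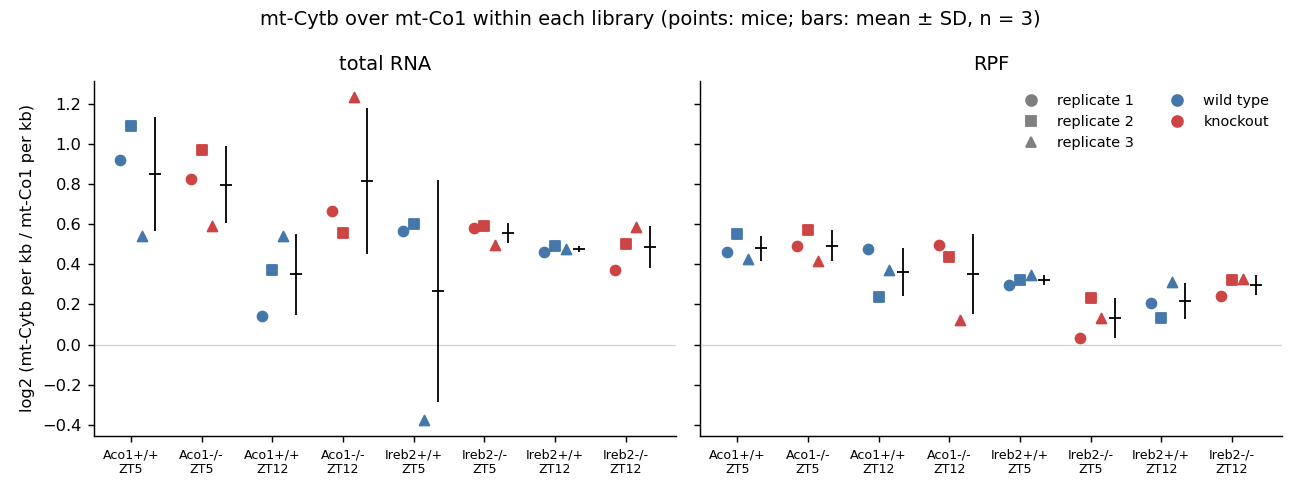
Log2 ratio of mt-Cytb to mt-Co1 counts per kb within each RNA library (left) and RPF library (right), by group; points are mice, bars the mean ± SD (n = 3). RNA ratios spread from -0.37 to 1.23 and RPF ratios from 0.03 to 0.57.

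In the IRP2 knockouts edgeR called no member against wild type in RNA, RPF or TE, and DESeq2 called *mt-Atp8* in TE at ZT5. Hepatocyte marker sums did not overlap between these genotypes, at 117447 to 137082 RNA CPM in *Ireb2*-/- and 96813 to 116415 in *Ireb2*+/+ livers at ZT5 and at 128986 to 151359 and 111374 to 122740 at ZT12, and their part in the values was not tested. In *Ireb2*-/- livers at ZT12, *mt-Co1* RPF was 665, 699.9 and 693 CPM against 741, 515 and 707 CPM in *Ireb2*+/+, and *mt-Co1* RNA was 7651, 6014 and 9272 CPM against 7334, 7744.2 and 7438 CPM. The knockout values lay within the range of the controls in RPF, and in RNA 1 lay below that range, 1 within it and 1 above it. The estimates for *mt-Co1*, *mt-Cytb* and *mt-Atp8* at ZT12 were between -0.02 and 0.16 on the log2 scale in RNA, RPF and TE. The shares of genes called at ZT12 were 0.0187% in RNA, 0.028% in RPF and 0.0% in TE (edgeR, 381 genes at an unadjusted p under 0.05 in TE). No member had an unadjusted p under 0.05 at ZT12, and DESeq2 called none.

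At ZT5 the RNA differences rested on the liver that stood apart, and the TE differences were smaller without it. *mt-Co1* RPF was 1232, 987 and 614 CPM in *Ireb2*+/+ and 570.3, 949 and 693 CPM in *Ireb2*-/- livers. Log2 TE of *mt-Co1* was -2.56, -2.97 and -1.95 in *Ireb2*+/+ and -3.67, -3.11 and -3.55 in *Ireb2*-/- livers, with no overlap. *mt-Cytb* and *mt-Atp8* were separated in the same way, as were 6.11% of genes. The TE differences were -0.94, -1.40 and -1.14 for *mt-Co1*, *mt-Cytb* and *mt-Atp8*, with SE of 0.30 to 0.51, and none passed (edgeR adjusted p = 0.658, 0.694 and 0.558). Without *Ireb2*+/+ replicate 3 they were -0.67, -0.82 and -0.83, and the RNA differences of 0.44, 0.51 and 0.48 became 0.07, 0.04 and 0.08. EdgeR called no member in RNA, RPF or TE at ZT5 with or without it, against 0.00935%, 0.0654% and 0.00935% of all genes. With all livers, *mt-Atp8* in RPF and *mt-Co1*, *mt-Cytb* and *mt-Atp8* in TE had an unadjusted p under 0.05, and the DESeq2 estimate for *mt-Atp8* TE was -1.18 (adjusted p = 0.0120). Without *Ireb2*+/+ replicate 3 DESeq2 lost that call, at -0.84 (adjusted p = 1), and called *mt-Atp8* in RPF, at -0.76 (adjusted p = 0.0493). The change of the IRP2 effect from ZT5 to ZT12 was not called for any gene in RNA, RPF or TE (0.0% in each, with 413, 426 and 562 genes at an unadjusted p under 0.05), and DESeq2 called none. Of the members, *mt-Co1* and *mt-Atp8* had an unadjusted p under 0.05, both in TE, at 1.02 and 1.30, which became 0.75 and 0.98 without *Ireb2*+/+ replicate 3 at ZT5 and were then not called either.

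Across the day in the *Ireb2* line, the single edgeR call was *mt-Atp6* RPF in *Ireb2*+/+ livers, which had 22, 19 and 12 counts at ZT5 and 1, 1 and 4 counts at ZT12. The groups were separated, as for 15.0% of genes, and the log2 fold change was -2.54 (SE 0.59, edgeR adjusted p = 0.0106, 7.53% of genes called). The fit on the first run alone (the table of each library with the lower run number in its title) and the fit without *Ireb2*+/+ replicate 1 at ZT5 each lost this call, DESeq2 gave the gene no adjusted p, and *mt-Atp6* is one of the members with uncertain counts. Without *Ireb2*+/+ replicate 3 at ZT5, *mt-Co1* and *mt-Atp8* RPF also passed, at -0.76 for both (edgeR adjusted p = 0.0333 and 0.0131), where the fit of all livers gave -0.53 for both and did not call them. EdgeR called no member in RNA in *Ireb2*+/+ (2.29% of genes were) or *Ireb2*-/- livers (2.77%), in RPF in *Ireb2*-/- livers (5.73%), or in TE in *Ireb2*+/+ (0.533%) or *Ireb2*-/- livers (0.00935%). DESeq2 called *mt-Atp8* in TE of *Ireb2*+/+ livers, at -0.94 (adjusted p = 0.0308). Without replicate 3 at ZT5 DESeq2 no longer did, at -0.60 (adjusted p = 0.669), and called *mt-Co1*, *mt-Cytb*, *mt-Atp8* and *mt-Atp6* in RPF (adjusted p = 0.0142, 0.0191, 0.00650 and 0.0349). In TE of all *Ireb2*+/+ livers in edgeR, all 5 tested members had an unadjusted p under 0.05 and *mt-Co1*, *mt-Cytb* and *mt-Atp8* were lower in each ZT12 liver, as were 6.38% of genes. Their estimates of -1.04, -1.33 and -0.91 became -0.77, -0.75 and -0.60 without replicate 3 at ZT5, and *mt-Atp6* TE then passed at -2.30 (edgeR adjusted p = 0.00447). In the other 4 of these comparisons no member had an unadjusted p under 0.05 and DESeq2 called none.

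RNA and RPF of the same liver were then compared after the mean of each group was removed. For *mt-Atp8* the deviations went together over 24 livers, with Pearson r = 0.784 and Spearman rho = 0.774 (permutation within groups, p = 0.00076 and 0.00042, and 0.0038 and 0.0021 after adjustment over 5 members). For *mt-Cytb* r was 0.588 and rho 0.503 (permutation p = 0.015 and 0.0208, adjusted 0.0376 and 0.0518), and for *mt-Co1* r was 0.601 and rho 0.525 (permutation p = 0.0388 and 0.0311, adjusted 0.0647 and 0.0518). *mt-Co3* and *mt-Atp6*, with RPF counts near 0, had r = 0.460 and 0.014 (permutation p = 0.190 and 0.958, adjusted 0.238 and 0.958), and rho of 0.361 and -0.123 (permutation p = 0.152 and 0.602, adjusted 0.191 and 0.602). Without the 2 livers farthest from the median, r was 0.714 for *mt-Atp8*, 0.475 for *mt-Cytb* and 0.442 for *mt-Co1* (permutation p = 0.00195, 0.0367 and 0.083). Replicate 3 shifts the mean of the *Ireb2*+/+ group at ZT5 and with it the deviations of the other livers of the group. Over the 21 livers of the other 7 groups, an alternative added after seeing the data, r was 0.660 for *mt-Atp8*, 0.345 for *mt-Cytb* and 0.243 for *mt-Co1* (permutation p = 0.00441, 0.0535 and 0.175), so the relations of *mt-Cytb* and *mt-Co1* rested on that group.

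**Figure D5:**
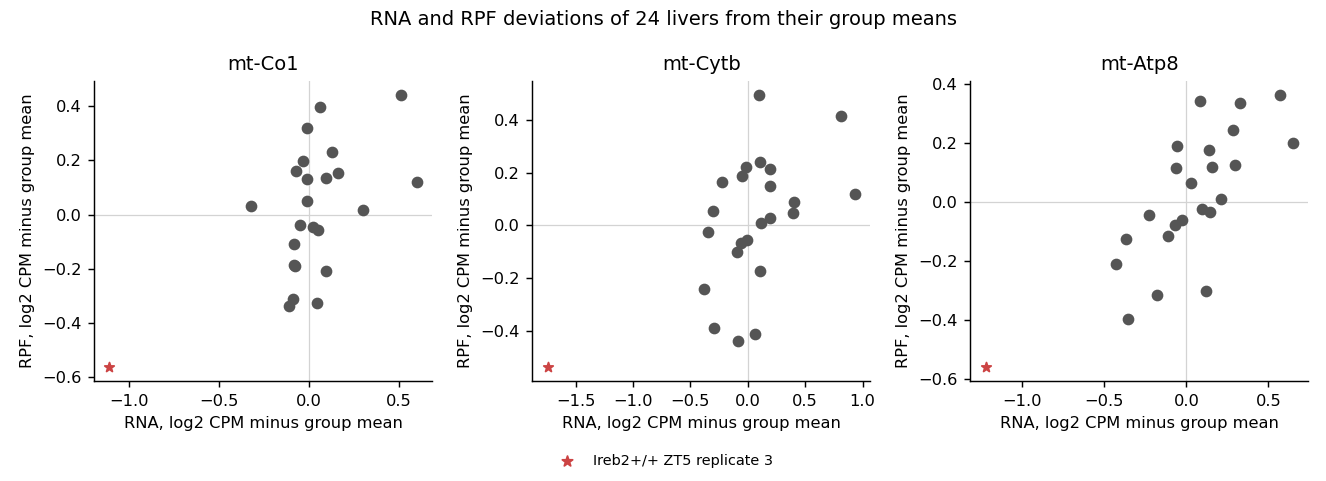
Deviation of RPF from its group mean against that of RNA (both log2 CPM) for mt-Co1, mt-Cytb and mt-Atp8, 1 point per liver (24 livers); the star is Ireb2+/+ replicate 3 at ZT5. That liver is lowest on both axes for each gene, and the correlation over all livers is 0.601, 0.588 and 0.784.

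The genes whose levels most resembled the summed members were ranked by the correlation of deviations over the 24 livers, as a description. In RNA, complex I mRNAs of the same genome took 5 of the first 8 places among 6506 genes, with r from 0.944 for *mt-Nd3* to 0.984 for *mt-Nd4*, while *mt-Nd4l* ranked 17 (r = 0.849) and *mt-Nd6*, which is encoded on the other strand, ranked 2138 (r = 0.200). Without *Ireb2*+/+ replicate 3 at ZT5, *mt-Nd4* and *mt-Nd1* ranked 3 and 4, but *mt-Nd2*, *mt-Nd3* and *mt-Nd5* ranked 11, 43 and 63 and *mt-Nd4l* 803. In RPF, *mt-Nd1*, *mt-Nd5*, *mt-Nd2*, *mt-Nd4* and *mt-Nd6* ranked 3, 4, 6, 7 and 11 among 6320 genes, with r from 0.949 down to 0.724. Outside the mitochondrial genome the 5 highest were *Tmem126a*, *Dram2*, *Rps12*, *Tmem242* and *Rnf13* in RNA (r from 0.899 to 0.872) and *Alg1*, *Aldh9a1*, *Ndufa9*, *Echs1* and *Mtg1* in RPF (r from 0.740 to 0.698). None of these 5 in either list was among the 5 highest when *Ireb2*+/+ replicate 3 at ZT5 was left out, so the nuclear names depended on 1 liver.

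EdgeR called none of the nuclear partners in RPF in *Aco1*-/- against *Aco1*+/+ livers at ZT12, where it called 0.299% of all genes. Lists of this size would hold few or no calls at that share. Of 9 complex III, 12 complex IV and 15 tested complex V genes, 3, 0 and 1 had an unadjusted p under 0.05 in edgeR, with medians of -0.08, 0.08 and -0.14 on the log2 scale beside 0.02 over all genes, 1.03 over the 5 tested members and 0.89 over 7 complex I mRNAs. None of 35 genes for mitochondrial transcription, RNA processing and translation was called by edgeR either, and 3 had an unadjusted p under 0.05 (median 0.03). Among complex I mRNAs, *mt-Nd5*, *mt-Nd4* and *mt-Nd2* were called in RPF, at 1.13, 1.29 and 1.33, and *mt-Nd5* alone in TE, at 0.67 (edgeR adjusted p = 0.00278). *mt-Nd6* and *mt-Nd4l*, named after their values were seen, had RPF estimates of -0.29 and -0.75, which did not pass.

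Over time in *Aco1*-/- livers some partners were called in RPF, where 12.1% of all genes were. *Uqcrb* and *Uqcrh*, small nuclear subunits of complex III, fell in RPF by 1.09 and 0.93, and *Uqcrc2*, a core subunit, rose by 0.43. In all, 3 of 9 complex III genes were called lower and 1 higher. *Cox6a1* of complex IV fell by 0.62, the 1 call among 12, and edgeR called no complex V gene (2 of 15 had an unadjusted p under 0.05). Of the 35 genes for mitochondrial gene expression, *Fastkd1* and *Tbrg4*, which belong to a family that acts on mitochondrial RNA, rose by 0.87 and 0.63, and *Mtif3*, a mitochondrial translation initiation factor, fell by 0.52. The counts for complex IV, complex V and this list were below the share of all genes called. *Fastkd1* RPF also rose in *Aco1*+/+ livers, by 1.09. The marker sums of *Aco1*-/- and *Aco1*+/+ livers overlapped at ZT12 for each of the 7 lists. Of the muscle and fat markers only 2 of 5 genes were found, with sums of at most 0.544 RNA CPM in these livers, so that overlap says little. Hepatocyte markers were at 117140 to 133783 RNA CPM in *Aco1*-/- and 120696 to 144395 in *Aco1*+/+ livers, and red blood cell markers (4 of 5 genes found) at 1.91 to 103 and 26.7 to 64.4.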

How the data were processed

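RNA and RPF libraries of 24 livers were analysed. The authors trimmed reads with cutadapt 3.5, kept RPF reads of 24 to 35 nt and RNA reads of 21 to 60 nt, removed rRNA and tRNA reads with Bowtie2 and mapped the rest to the mouse genome (GRCm38) with STAR 2.70f. Raw counts per gene were deposited in 5 unnamed columns. The third column of the file, after the identifier and the 5′ UTR column, was read as CDS counts. It held 91.9% to 96.1% of RPF counts. The counting tool, its strand setting and its handling of reads with several positions are not given in the sources used here. The 77 tables were summed to 48 libraries (19 have 1 table). Tables of the same library differ in a number in their titles, which was taken to mark a sequencing run, although the labels do not say so.

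CDS counts were scaled by the upper quartile over 48 libraries and tested with edgeR 4.0.16 (quasi-likelihood, robust, R 4.3.3) in 1 fit per line, after filterByExpr with a minimum count of 10 left 10696 genes. TE was tested as the interaction of library kind and group with mouse terms. Benjamini-Hochberg adjustment covered the 10696 genes, and an adjusted p under 0.05 was called. Exact permutation tests with 3 against 3 mice cannot go below p = 0.1. The replicates are separate mice. Relations of RNA and RPF used 100000 permutations within groups. Log2 TE per liver is the ratio of CPM with nothing added, and the ranking of TE among all genes, exact tests and relations used CPM + 0.5. Scripts were tested on simulated data. Symbols were matched for 25214 of 25266 identifiers, and coordinates are those of RefSeq on GRCm38.p6.

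The alternatives were TMM, upper quartile without mitochondrial genes, DESeq2 1.42.0, no filter, a minimum count of 50, only the 6 mice compared, the table with the lower such number alone (named the first run), all count columns, unpaired libraries, limma 3.58.1 on TE per mouse, a replicate block and leaving out each mouse. The members and gene lists were chosen with earlier results of these data known. All members are named. Of other lists, at most 3 called genes are named by smallest adjusted p, and the 5 genes outside the mitochondrial genome most like the summed members. Library numbers are consecutive within a line and time, so preparation order, if they mark it, cannot be told apart from time of day. Mitochondrial rRNA and tRNA rows held 0 counts.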

Additional observations from a re-analysis of the deposited data

Results flagged for a closer look

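The effect of IRP1 loss on *mt-Co1* TE differed between ZT12 and ZT5 by 1.10 on the log2 scale (SE 0.18, edgeR adjusted p = 0.00462 for the difference itself), and *mt-Co1* TE was higher in 3 of 3 *Aco1*-/- livers at ZT12. The call was kept in 10 of 12 fits with a mouse left out and in 7 of 10 other ways of processing, and lost with all count columns, unpaired libraries and limma.

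*mt-Atp8* was singled out because its groups separated in opposite directions under the same contrast. From ZT5 to ZT12 its RPF differed by -0.46 in *Aco1*+/+ and by 0.78 in *Aco1*-/- livers, and the test of this difference gave an edgeR adjusted p of 0.157. Its TE differed between *Aco1*-/- and *Aco1*+/+ livers by -0.27 at ZT5 and by 0.53 at ZT12, and from ZT5 to ZT12 by -0.49 in *Aco1*+/+ and by 0.30 in *Aco1*-/- livers. The difference of -0.27 ran from -0.36 to -0.16 with a mouse left out (-0.16 without *Aco1*+/+ replicate 3) and was -0.16 with all count columns, and that of 0.30 ran from 0.18 (without *Aco1*-/- replicate 2 at ZT12) to 0.40. The difference between either pair of TE values is 0.79 (edgeR adjusted p = 0.178). Neither difference passed the test in edgeR. DESeq2 and the replicate block, 2 of 8 other ways of processing, called the RPF difference, and 0 of 12 fits with a mouse left out did. The TE difference was called in 0 of 10 other ways of processing and in 1 of 12 fits with a mouse left out. No formal outlier test was applied to groups of 3 livers.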

How the results depend on the processing

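Counts are of members past an adjusted p of 0.05, and the log2 fold changes of *mt-Co1*, *mt-Cytb* and *mt-Atp8* in RNA, RPF and TE of *Aco1*-/- against *Aco1*+/+ at ZT12 kept their sign under each alternative. In RNA from ZT5 to ZT12, the 1 call in *Aco1*+/+ became 0 with upper quartile scaling without mitochondrial genes, no filter, a minimum count of 50 or the first run, and 0 to 0 with a mouse left out. The 1 call in *Aco1*-/- became 2 with all columns and 0 with only the 6 mice, and 0 to 3 with a mouse left out. RNA of *Aco1*-/- against *Aco1*+/+ at ZT12 gave 0 to 1 with a mouse left out. In RPF, the 3 calls at ZT12 became 0 to 3 with a mouse left out. The change of the IRP1 effect gave 3 calls in place of 0 with DESeq2. The 1 call in *Ireb2*+/+ over time became 0 with DESeq2, which gave *mt-Atp6* no adjusted p, 0 with the first run and 0 to 3 with a mouse left out.

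In TE at ZT12, the 1 call became 2 with DESeq2, no filter or all columns, 0 with unpaired libraries or limma and 1 to 2 with a mouse left out. The 1 call in *Aco1*+/+ over time became 2 with DESeq2 or only the 6 mice, 0 with a minimum count of 50, all columns, unpaired libraries or limma, and 0 to 1 with a mouse left out. The 1 call for the change of the IRP1 effect became 0 with all columns, unpaired libraries or limma, and 0 to 2 with a mouse left out. In the *Ireb2* line 0 became 1 at ZT5 with DESeq2, 1 over time in *Ireb2*+/+ with DESeq2 (0 to 1 with a mouse left out) and 1 over time in *Ireb2*-/- with only the 6 mice. DESeq2 without *Ireb2*+/+ replicate 3 at ZT5, chosen after seeing the data, gave 1 call in place of 0 in RPF of *Ireb2*-/- against *Ireb2*+/+ at ZT5, 4 in place of 1 in RPF over time in *Ireb2*+/+ and 0 in TE. The cause of these changes was not tested.

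Replicate numbers are shared between genotypes within a time but did not pair the livers, since in 0 of 8 comparisons did all same-numbered pairs correlate above 0.1 (r from -0.090 to 0.328, and 13 of 24 pairs correlated best with their own number). With the number as a replicate block, the change of the IRP1 effect in RPF gave 3 calls in place of 0 and TE at ZT12 gave 2 in place of 1. No paired analysis over time was made, since numbers are nested within a time. Low counts limit *mt-Atp6* and *mt-Co3*, whose RPF counts reach at most 22 and 4, and the cause of the low counts was not tested.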
